A study of Drosophila melanogaster with 3 samples.

Results

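The earliest map of the series is the binding landscape of Zelda (ZLD) in wild-type Oregon R embryos of Drosophila melanogaster at mitotic cycles 8 to 9, called cycle 8 here. It was taken as every deposited peak of the cycle 8 list that lay on the chromosome arms 2L, 2R, 3L, 3R, 4 and X, together with the mapped reads of the same library. By this rule 11028 of the 11374 cycle 8 peaks were kept, out of 31277 peaks in the lists of all 3 stages of the series. Among the deposited peaks, membership depended only on place and not on height. The list itself holds only places that the authors' peak caller took as significantly bound, so low heights are missing from it. Its intervals are at least 280 bp wide and do not overlap, which also sets a lower end to widths and distances. The chromatin came from a pool of embryos collected 60 to 90 min after laying and hand sorted by morphology, so that embryos of adjacent cycles may be mixed in it. The immunoprecipitation used 3.7 µg of this chromatin and affinity-purified anti-ZLD antibodies, raised against a C-terminal part of the protein and depleted of those that recognize its zinc fingers. No treatment was given and no allele was introduced. There was 1 library and no replicate, so all values describe this library, no test was made, and peaks are not replicates of each other.

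ZLD is a zinc-finger transcription factor that the mother supplies to the egg and that is needed to switch on the first genes of the embryo. It recognizes the TAGteam family of short DNA elements, of which CAGGTAG is the best known, and it is regarded as a pioneer factor, a protein that can bind DNA before the surrounding chromatin has been opened by others. In the fly the first nuclear divisions are fast and share a common cytoplasm. A small set of genes, among them those that count X chromosomes and those that begin body patterning, is transcribed before the general activation of the genome. ChIP-seq, which sequences the DNA fragments pulled down with a protein, shows where the protein sat and, through the number of reads, how much DNA was recovered from each place.

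The cycle 8 library held 13496488 mapped reads, of which 13185622 (97.7%) lay on the arms. Only 23.3% of the arm reads started at a distinct combination of position and strand, so a used position held 4.28 reads on average. Such copies need not be separate molecules, and the 95% intervals of coverage (exact Poisson) and of shares of reads (Clopper-Pearson) cover counting error only. Those for shares of peaks (Clopper-Pearson) and for medians (order statistics) treat peaks as independent draws and do not cover variation between libraries. The height of a peak is the value deposited by the authors, a fit to the coverage of reads extended to 150 bp and scaled to 10000000 reads. It followed the highest coverage counted from the deposited reads inside the same interval with a Spearman coefficient of 0.98 over the 11028 peaks, which share 1 library. The median coverage of the arms was 4.45, and the median peak height was 25.7 times that value. Only 6 peaks had a height under 3 times the median coverage.

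Sites where a single protein was bound should show forward reads on one side and reverse reads on the other. Around the 1505 peaks with no other midpoint within 10000 bp, the 5′ ends of forward reads were most frequent 70 bp before the position of highest coverage and those of reverse reads 70 bp after it. The forward reads lay before that position in 80.5% of cases, and the reverse reads after it in 80.4%. Part of these distances and shares, and the step at distance 0 in the plot of reads, is built in. The position was chosen as the highest coverage of the same reads, extended to 150 bp. That coverage counts forward reads that start up to 150 bp before it and reverse reads that start up to 150 bp after it. In the 1500 of these peaks with at least 10 distinct reads on each strand, the medians of the strands were 131 bp apart (quartiles 114 and 148 bp). Over all 11028 peaks, only 25 (0.23%) had at least 80% of their reads on 1 strand, and none had 50% of its reads at 1 position. There were 147 peaks (1.33%) with fewer than 20 distinct reads within 150 bp of the midpoint, and their median height was 24.7.

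**Figure D1:**
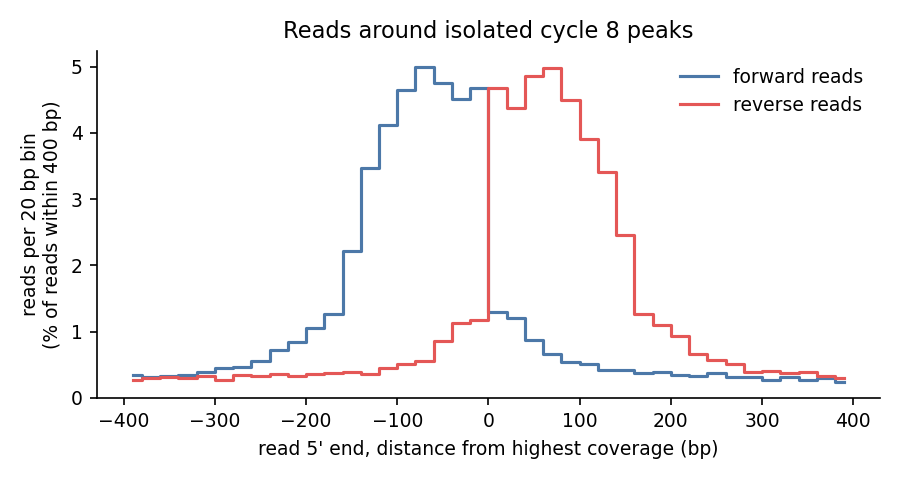
Forward and reverse reads around the 1505 isolated cycle 8 peaks. The x axis gives the distance of a read's 5′ end from the position of highest coverage in bp, the y axis the reads in each 20 bp bin as a percentage of all reads within 400 bp, averaged over peaks; the curves peak at -70 bp (forward) and 70 bp (reverse).

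ZLD peaks were found on every arm, but at unequal density. Arm 2R carried 109 peaks per Mb (2300 peaks), 3R 100.6 (2807 peaks), 2L 96.6 (2220 peaks) and 3L 92.3 (2262 peaks). The X chromosome carried 60.8 per Mb (1362 peaks), and the small chromosome 4 carried 61.7 (77 peaks). The heights did not show this difference to the same degree. The median height was 111 on X (95% interval 105.2 to 116), against 110 on 2L (106 to 116), 115 on 3R (111 to 119), 114 on 3L (110 to 120) and 119 on 2R (115 to 124). On chromosome 4 it was 98.6 (90.6 to 125), and no peak there exceeded 1410. The arms with the lower densities also had lower coverage, although the order of the arms was not the same. The median coverage was 2.96 on X and 2.22 on chromosome 4, against 4.45 to 5.19 on the other arms, and 34.8% of X and 36.4% of chromosome 4 had no coverage at all, against 22.1 to 26.5% elsewhere. The part of this lower coverage in the lower density was not tested. Within each of the 5 large arms cut into 10 equal stretches, no stretch was without peaks. The density ran from 49.97 to 86.6 per Mb on X and from 80.3 to 135 on 3R, where the first stretch was the richest, and from 74.3 to 129 on 2R, where the first stretch was the poorest.

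Neighbouring peaks were close together. The median distance between adjacent midpoints was 5420 bp (95% interval 5210 to 5640, 11022 pairs) and the mean was 10875 bp, with an SD that was 1.36 times the mean. The shortest distance was 290 bp and the longest 203300 bp. Of the adjacent pairs, 5.26% lay within 500 bp, 17.4% within 1000 bp, 29.5% within 2000 bp and 48.0% within 5000 bp. At the other end, 301 gaps (2.73%) were longer than 50000 bp, and together they took up 21.2 Mb or 17.6% of the length read. The most closely spaced arm was 2R, with a median of 4660 bp (4210 to 5010), and on X the median was 8620 bp (7760 to 9590). The intervals of the list never overlapped or touched, since at least 10 bp lay between any of them, and 317 pairs of intervals were separated by 100 bp or less. On a log scale the histogram of spacing climbed to a shoulder at 705 to 791 bp (248 pairs in that bin), stayed between 205 and 257 pairs per bin up to 2805 bp, and was highest at 8870 to 9953 bp (359 pairs). It had no empty range in which a boundary between near and far neighbours could be drawn.

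**Figure D2:**
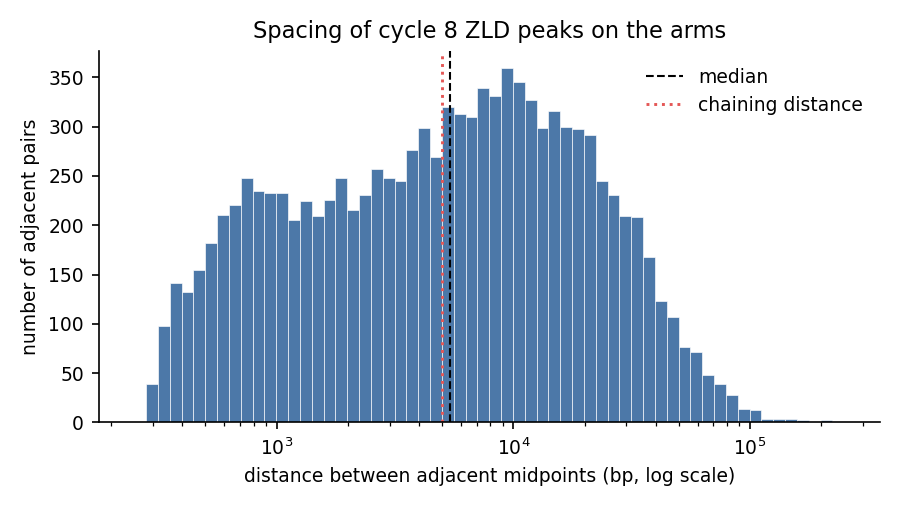
Distances between adjacent midpoints of the 11028 cycle 8 peaks, with the distance in bp on a log x axis and the number of adjacent pairs on the y axis. The dashed line marks the median of 5420 bp and the dotted line the 5000 bp used to chain peaks into loci.

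Counted in windows of 50000 bp, the arms gave 2401 windows with a median of 4 peaks (quartiles 2 and 6) and a maximum of 19. Only 122 windows (5.08%) held none. The variance of the count was 2.22 times its mean. The 24 windows with 15 or more peaks held 3.62% of all peaks.

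To describe clusters, peaks were chained into a locus while adjacent midpoints were at most 5000 bp apart, and a locus of 3 or more peaks was called a cluster. This gave 5739 loci, of which 3229 held a single peak, 1269 held 2 and 1241 were clusters. The clusters held 5261 peaks, 47.7% of all (46.8 to 48.6), and 61.8% of the summed height. A peak was called isolated where no other midpoint lay within 10000 bp, and 1505 peaks (13.6%, 13.0 to 14.3) met this. They held 8.09% of the summed height. The share of peaks in clusters was highest on 2R (53.9%) and lowest on chromosome 4 (31.2%) and X (35.1%), and the share of isolated peaks ran the other way, from 9.52% on 2R to 22.8% on X and 29.9% on chromosome 4. Both shares depend on the distances chosen. With chaining at 2000 or 10000 bp, 22.9% or 71.8% of peaks were in clusters, and with isolation at 5000 or 20000 bp, 29.3% or 4.12% of peaks were isolated.

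Clustered peaks were higher than isolated ones. The median height was 129 (95% interval 125 to 134) in clusters and 99.3 (95.9 to 103) among isolated peaks, a ratio of 1.30, while the remaining 4262 peaks had a median of 107 (104 to 110). The difference was larger at the top of the range. A height of 1000 or more was reached by 426 clustered peaks (8.10%, 7.37 to 8.87) and by 23 isolated ones (1.53%, 0.97 to 2.28). The read counts, which do not pass through the peak fit, gave the same order, with a median of 67 distinct reads per clustered peak (65 to 69) and 49 per isolated peak (47 to 51). Reads from a close neighbour can fall in the same 300 bp, and their part in this count was not tested. The rise was gradual when peaks were grouped by how many others lay within 10000 bp. The median height was 99.3 with no other peak, 106 with 1, 113 with 2 to 3, 135 with 4 to 6, 153 with 7 to 9 and 238 (161 to 336) in the 113 peaks with 10 or more. The share of peaks at 500 or above rose over the same groups from 4.32% to 32.7%. The spread inside each group was wide. The lower quartile was 73.9 for peaks with no neighbour and 94.96 for those with 10 or more, against upper quartiles of 157 and 762.

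The heights of adjacent peaks were only loosely related. Over the 5289 adjacent pairs within 5000 bp, the Spearman coefficient of their deposited heights was 0.16. By distance it was 0.19 within 500 bp (580 pairs), 0.26 from 500 to 1000 bp (1333 pairs), 0.13 from 1000 to 2000 bp and 0.08 from 2000 to 5000 bp, and it was 0.02 from 5000 to 10000 bp. All pairs come from 1 library, and the closest ones share reads. The coverage at the same pairs gave 0.64 within 500 bp and 0.40 from 500 to 1000 bp. With read counts in place of heights, with or without copies, the coefficient over the pairs within 5000 bp was 0.26. In 1382 of those pairs (26.1%) the heights differed more than 4-fold, against 17.4% of adjacent pairs more than 20000 bp apart. In pairs within 500 bp the median of the higher member was 260 and that of the lower 89.3.

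Inside clusters, one peak tended to hold much of the height. The highest peak of a cluster held a median of 50.9% of its summed height (quartiles 41.3 and 64.2%), and in 646 of 1241 clusters (52.1%) it held 50% or more. Equal shares would give 25% at the median size of the clusters, and 33.3% in the 610 clusters of 3. The second highest peak was a median of 0.53 times as high as the first. In the 10 clusters of 12 or more peaks the highest peak still held 28.5%, where equal shares would give 7.14% at the median size of these clusters. Heights were unequal over the whole list, where the top 10% of peaks held 54.0% of the summed height. Part of the excess over equal shares is therefore built in, and its size was not tested. In clusters of 3, the middle peak was the highest in 190 of 610 (31.1%), and equal frequency of the 3 places would give 33.3%. The median length of a cluster was 5250 bp and the longest measured 29550 bp between its outer midpoints. In 107 clusters (8.62%) no peak reached the median height of 114. By definition 50% of all peaks lie below the median. Some such clusters would be found if heights were unrelated to crowding, and their expected share was not computed.

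The width of the deposited intervals followed a floor. The narrowest intervals were 280 bp, widths rose in steps of 10 bp, and 8610 peaks (78.1%) had exactly 280 bp. The widest interval measured 960 bp, and 107 peaks measured 600 bp or more. All intervals together covered 3.29 Mb, or 2.74% of the length read. An interval wider than the floor went with a high peak. Of the 4704 peaks under a height of 100, 2.93% were wider than 280 bp, and this share was 6.49% from 100 to 200, 24.4% from 200 to 300, 66.4% from 300 to 400, 93.4% from 400 to 600 and 99.6% above (1001 of 1005 peaks). The Spearman coefficient between height and interval width was 0.61. The width of the signal itself changed far less with height. At 50% of its highest value the coverage had a median width of 189 bp (quartiles 173 and 215, 11015 peaks measured). This width was 183 bp under a height of 100 and 204 bp at 600 or above, with a Spearman coefficient of 0.24 against height. Part of the width is built in, because reads were extended to 150 bp. By interval width the medians were 186 bp at 280 bp, 294 bp at 410 to 560 bp and 267 bp at 570 bp or more.

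**Figure D3:**
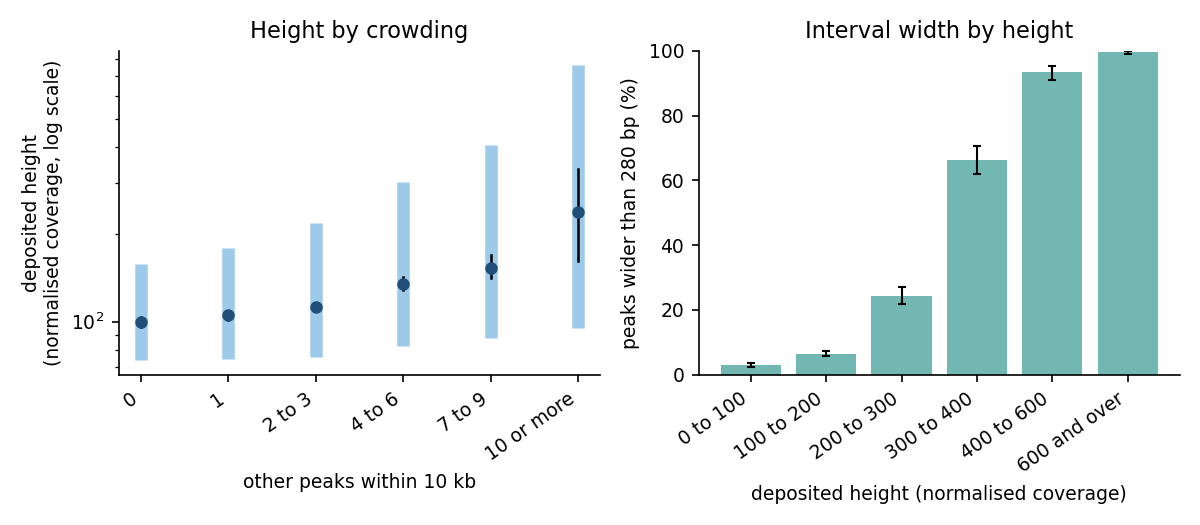
Left: deposited height (normalised coverage, log y axis) by the number of other peaks within 10 kb, with the median as a point, its 95% interval as a thin line and the quartiles as a bar; the median rises from 99.3 to 238. Right: the percentage of peaks wider than 280 bp by height, with exact 95% intervals; it rises from 2.93% to 99.6%.

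Most wide intervals also held a single maximum of coverage, 79.9% of those of 410 to 560 bp and 79.9% of those of 570 bp or more, but more than 1 maximum was more frequent in them. Of the 319 intervals of 410 to 560 bp, 20.1% held 2 or more separate maxima of coverage, and so did 20.1% of the 154 of 570 bp or more, against 1.02% of those at 280 bp. In them the highest coverage lay a median of 88 and 117 bp away from the midpoint, against 12 bp at 280 bp. The midpoint of such an interval was thus farther from its highest signal than that of a narrow one.

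The 5 widest intervals were all strong peaks. Both of the widest, at chr2R:9450951-9451910 (960 bp, height 4194) and chr2R:9456511-9457440 (930 bp, height 1475), lay in the same cluster near CG13334 and CG13335, and each held 2 maxima. The third, at chr3L:4480331-4481250 near CG7465 (920 bp, height 2977), had 3122 reads within 150 bp of its midpoint, of which 36.4% were forward (34.7 to 38.1). That window takes in only the middle of the interval, so this share is not that of the whole peak. The fourth, at chr2R:8096071-8096960 (890 bp, height 1414), lay near Sr-CII, a scavenger receptor gene, and the fifth, at chr3R:27493781-27494660 (880 bp, height 1552), near CG1815. At the latter 993 reads lay within 150 bp of the midpoint.

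Height was shared very unequally among peaks. The lowest peak measured 7.11, the median 114 (112 to 116), the upper quartile 222, the 90th percentile 541 and the highest 10887, which is 95.4 times the median. A large group of 4479 peaks (40.6%) lay between 50 and 100. The top 10% of peaks (1103 peaks) held 54.0% of the summed height, the top 1% (110 peaks) held 15.9%, and the lower 50% held 14.0%. Put another way, 901 peaks (8.17%) carried 50% of all height, and the 584 peaks of 1000 or more (5.30%) carried 41.6%. Summed over loci the concentration was a little stronger. The top 10% of loci (574 loci) held 57.5%, and 414 loci held 50%. Of these 574 loci, 437 (76.1%) were clusters, 104 were pairs and 33 were single peaks. Over all 5739 loci, 21.6% were clusters, 22.1% pairs and 56.3% single peaks. The ranking by summed height favours loci with more peaks, so part of this difference is built in. The Gini coefficient, which is 0 for equal shares and 1 when one member holds all, was 0.61 over peaks and 0.67 over loci. The number of peaks in a locus and its summed height had a Spearman coefficient of 0.73, and part of this is built in because each peak adds to the sum. With the highest peak in place of the sum it was 0.53. Part of that is built in as well, because a locus with more peaks has more chances to hold a high one.

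**Figure D4:**
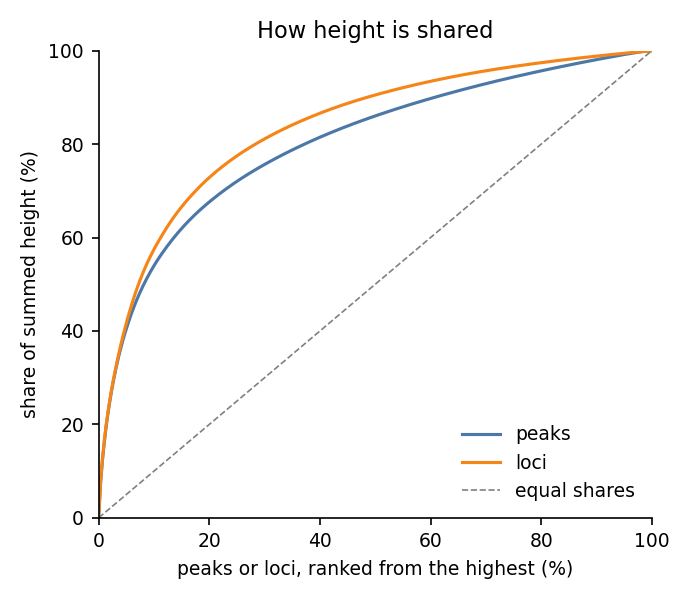
Share of the summed height (y axis, %) held by peaks or loci ranked from the highest (x axis, %), with the diagonal for equal shares. The top 10% hold 54.0% over peaks and 57.5% over loci.

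The copies of reads bear on this inequality. In the lowest 25% of peaks by height a median of 26.8% of reads were distinct, in the top 10% 15.9% and in the top 1% 6.74%. Only 602 combinations of position and strand fit in the 300 bp around a midpoint, and 146 peaks, none lower than 1560, had used at least 80% of them. With 1 read per position and strand, and peaks ranked anew by that count, the top 10% held 36.4% of the reads at peaks. This count is bounded by the limit at the highest peaks. Ranked by forward reads alone, the top 10% held 54.4% of these, and by reverse reads alone 54.6%. Of all arm reads, 48.6% lay in peak intervals, and of the distinct reads 36.7%. The intervals held 1946 reads per kb, against 58.0 outside them.

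The 5 highest peaks lay on 3L and 2R. The highest of all, at chr3L:19549831-19550150, reached 10887 with 19961 reads from 574 distinct positions and strands, and lay between genes near CG9300. The third highest (8232, chr3L:19555291-19555750) stood 5530 bp away in the same locus. The second (8797, chr3L:16107141-16107490) lay in an intron near Taf4, which encodes a subunit of the general transcription factor TFIID. The fourth (7619, chr2R:18965141-18965490) fell in coding sequence near Art7, an arginine methyltransferase gene, and the fifth (7433, chr2R:11018081-11018680) in an intron near chn, which encodes the zinc-finger repressor Charlatan. Each of them belonged to a cluster of 4 to 7 peaks, and the share of forward reads at them was between 48.6 and 51.5%.

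The loci with the largest summed heights were built in different ways. The first, near CG9300 on 3L, spanned 5530 bp and summed to 19649 from 4 peaks, with a peak of 10887 at one end, one of 8232 at the other, and lower ones of 147 and 383 between them. The second, on 2L, spanned 14735 bp and summed to 19539 from 10 peaks. Its height came from 3 peaks of 5119, 6602 and 6280 at the promoters of CG15480, CG16813 and CG16815 and another of 1132 at that of CG15479, while the remaining 6 measured 27.4 to 109. The third, on 3L, summed to 19143 over only 2610 bp and had no weak member, with peaks of 6769 at the promoter of CG15876, 7317 in an intron near CG13713 and 5056 at the promoter of CG13713. The fourth, on 2R by CG13333, CG13334 and CG13335, was also the locus with the most peaks. Its 21 peaks spread over 24305 bp and ran from 42.1 to 4194, with a median of 450, and 15 of them were at or above the median of all peaks. Its highest peak held 25.9% of its sum of 16185.

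The fifth locus was that of eve (even-skipped), the pair-rule gene whose separate enhancers each drive one or a pair of its stripes, and it ended near TER94, which encodes an ATPase of the AAA family. It held 15 peaks over 15210 bp and summed to 12657, with a median height of 519, and 12 of its peaks were at or above the median of all. The highest, 2910, lay between genes 955 bp before the promoter peak of 1417. On the far side a peak of 1399 was followed at a distance by others of 554, 395, 1436 and 519. The peak of 762 at chr2R:5864681-5864980 had a highest coverage of 1082, above its fitted height, and stood beside a peak of 2096.

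**Figure D5:**
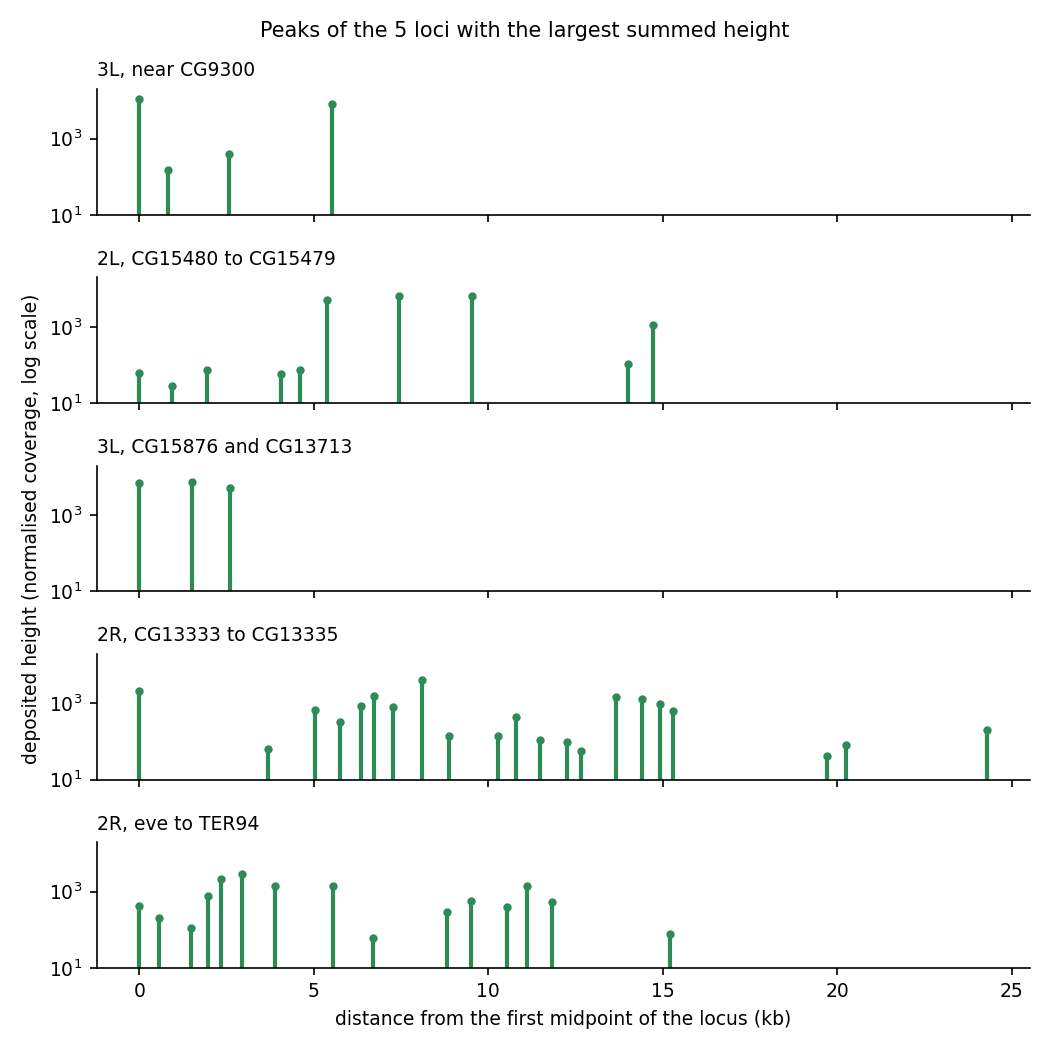
Peaks of the 5 loci with the largest summed height, each drawn at its distance in kb from the first midpoint of its locus (x axis) with its deposited height (normalised coverage, log y axis). The loci hold, from top to bottom, 4, 10, 3, 21 and 15 peaks, and 6 of the 10 in the locus of CG15480 measure 27.4 to 109.

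Loci with nearly the same number of peaks differed in summed height. By number of peaks the second locus was that of Alh on 3R, a gene for a protein with PHD zinc fingers, with 16 peaks over 29550 bp. Its median was 131 and its highest peak 842, so that with a sum of 2705 it ranked 221st of 5739 by height, still inside the top 10%. The Dscam locus on 2R, which encodes a cell adhesion receptor known for its very many splice forms, held 15 peaks over 28790 bp with a median of 84.7 and a highest of 440, and ranked 292nd, likewise inside the top 10%. The remaining locus of the 5 richest, with 14 peaks over 20585 bp, lay on 3L at Tom, Brd and Ocho, genes of the Bearded family that restrain Notch signalling. It held peaks of 3008, 1757, 1726, 1408, 1041 and 1015 and ranked 7th with a sum of 12070.

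The isolated peaks were mostly weak, but not without exception. The 3 peaks farthest from any other midpoint were all on X. The first, at chrX:21656141-21656420, had its nearest neighbour 129300 bp away and a height of 49.6. It bounds a gap of 202990 bp on its other side, 83.6% of which had no coverage. Its 86 reads came from only 17 distinct positions and strands, 80.2% of them forward (70.2 to 88.0). The second, at chrX:13937471-13937750, had a height of 88.1 and 44 distinct reads. The third, at chrX:6247471-6247750, had a height of 288 with 127 distinct reads, 49.6% of reads being forward, and thus stood well above the median with no other peak within 82230 bp. Chosen after their values had been seen, the highest isolated peaks were one of 4055 at the promoter of tsg on X, which encodes a regulator of Dpp signalling, one of 3193 in an intron near Idgf1 on 2L, a gene for a secreted growth factor, and one of 3130 in an intron near Aats-phe on 2R, which encodes a tRNA synthetase. Their distinct reads numbered 566, 553 and 469.

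The longest gaps differed in how much of them had coverage. The longest of all, 203300 bp on 2L between the midpoints at 21375931 and 21579231, held no coverage over 84.5% of its length and 2.93 distinct reads per kb. The gene positions used here are only part of the study's table, so genes can be missing from the gaps. Of those used, CG8665 and a histone pseudogene (His-Psi:CR31615) lie in this gap. The second, 202990 bp on X from 21453291 to 21656281, was without coverage over 83.6%. The third was unlike them. From 13327201 to 13500591 on X, a stretch of 173390 bp that includes up, the troponin T gene of muscle, 35.5% was without coverage, close to the 34.8% of the whole chromosome, and the gap held 10.4 distinct reads per kb. Outside peak intervals the arms as a whole held 16.7. The longest gaps on 3L (141340 bp, by the homeobox gene mirr), 3R (101270 bp) and chromosome 4 (90430 bp) lacked coverage over 24.3, 31.0 and 40.4% of their length, and that on 2R (169685 bp) over 89.5%. Inside the gaps, without the bounding peaks, the highest coverage was 83.0 on 2L, 62.2 in the longest gap on X and 252 on 2R. The higher of the bounding peaks measured 622, 82.3 and 505 there. The part of depth or of sequence without mapped reads in these gaps was not tested.

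The study's annotation of where a peak lies relative to genes was used for the 1728 peaks that it covered here, which are the highest of the list (1499 of the top 1500, none under 353) and held 62.8% of the summed height. Among them 556 (32.2%, 29.98 to 34.4) were intronic, 521 (30.2%, 28.0 to 32.4) intergenic, 373 (21.6%, 19.7 to 23.6) in coding sequence and 241 (13.9%, 12.3 to 15.7) at promoters, a class that reaches from 500 bp before a start site to 150 bp after it. The 5′ and 3′ untranslated regions held 26 and 11. Among the 4 larger classes promoter peaks were the higher ones, with a median of 1018 (829 to 1295). The median was 702 (651 to 769) for intergenic, 691 (618 to 754) for intronic and 605 (579 to 652) for coding peaks. It was 745 (525 to 1879) in the 5′ and 1008 (399 to 3355) in the 3′ untranslated regions, and these intervals overlap that of the promoter peaks. The setting of the 4 larger classes was alike. In clusters lay 68.9% (62.6 to 74.7) of the promoter peaks, 66.0% (61.8 to 70.1) of the intergenic, 65.3% (61.2 to 69.2) of the intronic and 63.5% (58.4 to 68.4) of the coding ones, and these intervals overlap. The median interval was 320 or 330 bp in all 4 kinds.

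Genes with known roles in the early embryo were then looked up within 5000 bp of their span. Of a list of 32 genes, 29 were found in the position table used, and upd1, slam and Taf4 were not looked up. All 29 had at least 1 peak, for 28 the highest peak was among the top 10% of peaks, and for 25 it lay in a cluster. Over the 1452 genes of the position table, 1283 had a peak, 439 (30.2%) had one among the top 10%, and for 624 (43.0%) the highest peak lay in a cluster. The table is the part of a longer one that was used here, and the list of 29 was drawn up from genes known for early activity and with earlier results of these data in view, so that neither share is a neutral background and nothing was tested with them.

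The X-chromosome genes that report the dose of X, which set the sex of the embryo, stood high. At sc (scute), 5 peaks were led by one of 5128 at the promoter, with a second of 2439 in what the annotation calls an intron and 3 others of 193 to 352. At sisA, both peaks were strong, 5230 at the promoter and 4464 between genes, 600 bp apart. At run (runt) peaks of 3557 and 3175 had 2 weaker ones of 237 and 331 between them and another of 201 outside. Sxl (Sex-lethal), the switch that these proteins act on, had 4 peaks led by one of 3201 at a promoter. None of their highest peaks was below rank 95 of 11028.

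Among the gap genes, which lay out broad regions of the body, the highest peak was 4509 at tll, 4428 at kni, 2509 at hb, 1951 at Kr and 1532 at gt. They differed in form. At hb 3 peaks of 2343, 2509 and 1384 stood with 2 of 162 and 165, whereas at kni 1 peak of 4428 stood among 9 others of 52.5 to 986. The pair-rule genes, which divide those regions into stripes, had 4 to 13 peaks each, and the highest was 4346 at h, 3983 at ftz, 3068 at prd, 3034 at odd, 2910 at eve, 1876 at opa and 1717 at slp1. At ftz the promoter peak held 71.0% of the summed height near the gene, and at opa the highest of 13 peaks held 24.8%.

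Of the genes that pattern the dorsoventral axis, zen, a homeobox gene of the dorsal side, had the highest peak at 6324, with another of 3213 at its promoter 1265 bp away. At sna, a repressor of the ventral side, peaks of 3254 at the promoter and 3148 between genes stood 1565 bp apart. sog, an extracellular inhibitor of Dpp, had a peak of 2546 in an intron that was a locus of its own, dpp, the BMP ligand of the fly, had one of 2439 within a cluster of 9, and twi, the ventral activator, one of 1675. rho, a protease that releases EGF ligands, reached 842. brk, a repressor of Dpp targets, differed from all the others, with a single peak of 64.7 (highest coverage 68.9, 95% interval 55.6 to 84.4), which was below the median of the landscape.

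The genes of cellularisation, the process that closes membranes around the nuclei, each had 1 dominant peak at the promoter. The peak of bnk (bottleneck) measured 6968, the seventh highest of all, beside 5 others of 16.2 to 197, that of Sry-alpha 3028 beside 5 of 33.3 to 106, and that of nullo 2130 beside 833 and 191. At lea, an axon guidance receptor gene, 12 peaks ran from 55.0 to 3267. CG14014 and CG18269 lie next to each other and share their peaks, which measured 4727 and 3073 at the promoters and 124 beside them.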

How the data were processed

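ZLD ChIP-seq was analysed in 1 library of hand-sorted cycle 8 embryos. The authors mapped 25 bp reads to dm3 (BDGP Release 5) with Bowtie 0.12.5, describing the kept reads as unique although the stated setting (-m 2) admits reads with 2 places, extended them to 150 bp, scaled them to 10000000 reads and called peaks in this library alone with Grizzly Peak, which fits overlapping peaks to the coverage. The deposited height is therefore a fitted coverage signal, and peaks that share reads divide them. The read list was deposited with its copies.

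From these files the midpoint of each interval, distances, loci, and coverage from reads extended to 150 bp were computed with Python 3.11.15, numpy 2.4.6 and scipy 1.17.1, and figures drawn with matplotlib 3.10.9. Reads at a peak were those whose extended middle lay within 150 bp of the midpoint. Maxima were counted after smoothing over 51 bp, at a prominence of 20%. The functions were tested on simulated data. Peaks and loci were named by rule: the 5 highest peaks, the 5 loci with most peaks and the 5 of largest summed height, the 5 widest, the 3 farthest from any other midpoint, the 3 longest gaps, and the gene list. The scheme, the distances and the gene list were chosen with earlier results of these data known. Gene labels and positions come from the parts of the study's tables used here, matched by exact interval. Coordinates are on dm3, counted from 1. Occurrences of CAGGTAG were not analysed here. The alternatives were other chaining and isolation distances, positions of highest coverage, peaks at or above the median height, and read counts with and without copies. Lists and reads of the other stages were not compared.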

Additional observations from a re-analysis of the deposited data

Results flagged for a closer look

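Outside the arms, in data that the landscape above does not use, the cycle 8 list held 346 peaks (3.04% of its 11374), which lay on heterochromatic or unplaced sequence. The highest reached 1444. In all, 310866 mapped reads (2.30%) lay there. They were set aside by the rule that defines the landscape, no untreated or control library was compared, and no explanation of them was tested.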

How the results depend on the processing

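Of 33 alternatives run for 10 results, 24 were counted as moved, some by little, and 9 as the same. Counts, shares and medians cannot be negative, so no reversal of direction could show in them. The height ratio of clustered to isolated peaks stayed above 1 in every alternative run for it. The Spearman coefficient of neighbours stayed positive in those run for it. The number of peaks, the median interval width of 280 bp, and all results recomputed with positions of highest coverage or with close midpoints joined moved by less than their interval or by under 1.5 times. No midpoints lay within 150 bp, so joining changed nothing. No intervals touched, so keeping only intervals that touch no other changed nothing either. Restricting the list to peaks at or above the median height gave a median spacing of 10310 bp, 30.7% of peaks in clusters and 28.3% isolated. Chaining at 2000 or 10000 bp gave 22.9% or 71.8% of peaks in clusters, 57.4% or 55.9% of height in the top 10% of loci and a height ratio of clustered to isolated peaks of 1.52 or 1.22. Windows of 50000 bp that held a peak gave 44.5% in the top 10%, and all 2401 windows 45.9%. Isolation at 5000 or 20000 bp gave 29.3% or 4.12%. For read counts, peaks and loci were ranked anew by each count. Read counts with copies gave 54.4% for the top 10% of peaks (54.4% forward, 54.6% reverse), 58.7% for loci, a ratio of 1.41 and a Spearman coefficient of neighbours of 0.26. With 1 read per position and strand these were 36.4%, 44.7%, 1.37 and 0.26, and 36.7% of arm reads lay in intervals. Pairs 500 to 5000 bp apart gave 0.16. The causes were not tested. The share of peaks with CAGGTAG was not run. No paired analysis was possible because the landscape is 1 library. The median number of distinct reads was 57 over all peaks and 32 in the lowest 25% by height. The heights of weak peaks thus carry wide counting error.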
